A study of Mus musculus with 5 samples.

Results

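The genes described here are 10 components of Notch signalling in mouse cells: the receptors Notch1, Notch2, Notch3 and Notch4, the ligands Dll1, Dll3, Jag1 and Jag2, and the target genes Hes1 and Hey1. They were taken by name, or by an older synonym or RefSeq accession, among the 14964 named genes of the array. They have 20 probes. Notch1 and Jag2 have 4 probes each, Notch2 and Notch4 have 3 each, and the other 6 genes have 1 each. The study followed mouse embryonic stem cells differentiating in embryoid bodies towards heart cells, in 4 populations selected by a marker. At day 0 undifferentiated stem cells positive for Rex1 were taken, at day 4.5 early mesoderm positive for Bra and, separately, cells positive for Flk1 that the labels call cardiac mesoderm, and at day 7.5 cardiac progenitors positive for Nkx2.5. They are called Rex1, Bra, Flk1 and Nkx2.5 cells below. RNA of a pair of populations was amplified, labelled and hybridised together on each of 5 arrays: Bra with Rex1, Flk1 with Rex1, Nkx2.5 with Rex1, Nkx2.5 with Bra and Nkx2.5 with Flk1. Not given in the sources used here are the cell line, the way the marker was detected, the number of cultures and whether arrays shared an RNA extract.

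Notch receptors are cut when a ligand on a neighbouring cell binds them, and the freed intracellular domain joins the DNA-binding protein RBPJ to switch on target genes. The best known targets are the Hes and Hey families of basic helix-loop-helix repressors. In the embryo the pathway acts in somite formation, in arterial endothelium and in the valves and trabeculae of the heart. In mouse embryonic stem cells it is known to favour neural over mesodermal and cardiac fates.

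Each pair of populations was hybridised once and without a dye swap, so the spread between cultures is unknown, no test between populations was made and none of the values below has a p-value. Rex1 RNA always carried Cy3 and Nkx2.5 RNA always carried Cy5, so on each direct array the dye and the population cannot be told apart. Bra and Flk1 RNA carried Cy5 beside Rex1 and Cy3 beside Nkx2.5. The arrays form closed triangles, which gives each difference along separate arrays. A first reading is the log2 ratio of the array that carried both populations, and a second reading is the sum along the other arrays of a triangle. Nkx2.5 over Rex1 has a route through Bra and another through Flk1, whose mean is its second reading. Flk1 over Bra was on no array and has only the routes through Rex1 (first) and Nkx2.5 (second). The triangle gap, how far a direct ratio lies from its route, had an SD of 0.391 log2 units over 24804 genes and unnamed transcripts for the route through Bra and 0.439 for the route through Flk1. This corresponds to an error of 0.24 for 1 array. A dye effect equal on all arrays would cancel in all second readings except that of Nkx2.5 over Rex1, where it would add up. It would also be part of each triangle gap and so of this error, and no dye effect was fitted. A gene was called higher or lower where both readings reached a fold of 2 in the same direction and the brighter population was well above background on at least 1 array. Relative to the background around the spot, the median net signal was lower in Cy3 than in Cy5 on every array. On the 3 arrays that carried Rex1 the Cy3 median was 0.302 to 0.34 times that background.

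The sort markers followed the labels in sign, though only 1 of 4 reached the fold of 2 in both readings. Zfp42, which encodes Rex1, was lower in Bra cells (-1.74 and -1.19 in the first and second readings), in Flk1 cells (-1.76 and -1.18) and in Nkx2.5 cells (-1.68 and -2.25) than in Rex1 cells. T, which encodes Bra, read 1.07 and 0.73 in Bra over Rex1. It also read above 0 in Flk1 over Rex1 (0.81 and 0.46), and Flk1 over Bra read -0.26 and -0.27. Kdr, which encodes Flk1, read 0.68 and 0.64 in Flk1 over Rex1, and Nkx2-5 read 0.53 and 0.91 in Nkx2.5 over Rex1.

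None of the 10 Notch genes reached the fold of 2 in both readings in any of the 6 comparisons. Such calls were rare among all genes as well. In Bra over Rex1, 1.16% of genes and transcripts were higher and 0.222% lower. In Flk1 over Rex1 these shares were 0.689% and 0.266%, and in Nkx2.5 over Rex1 they were 2.43% and 0.706%. They were 0.274% and 0.0605% in Nkx2.5 over Bra, 0.298% and 0.0847% in Nkx2.5 over Flk1, and 0.0202% and 0.00403% in Flk1 over Bra, so a count of 0 among 10 genes is near the background. All 10 genes were well above background in both channels of all 5 arrays by their brightest probe, as were 16 of their 20 probes. Most probes of the array passed this limit too. On single arrays 92.2% to 95.2% of all probes passed it in Cy5 and 77.6% to 91.5% in Cy3. The median first reading of the 10 genes was 0.12 in Bra over Rex1, 0.12 in Flk1 over Rex1 and 0.02 in Nkx2.5 over Rex1. Over all genes and transcripts it was 0.00, 0.01 and 0.01. The median second readings of the 10 genes were 0.13, -0.03 and 0.10, beside 0.01, 0.00 and 0.01 over all. A least-squares fit over the 5 arrays gave each gene 1 level per population, and the distance from its highest to its lowest level had a median of 0.275 for the 10 genes and 0.319 for all. Hes1, Jag1 and Dll3 had the widest distances of the 10, at 1.10, 1.01 and 0.52, and Notch2 the narrowest, at 0.02.

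**Figure D1:**
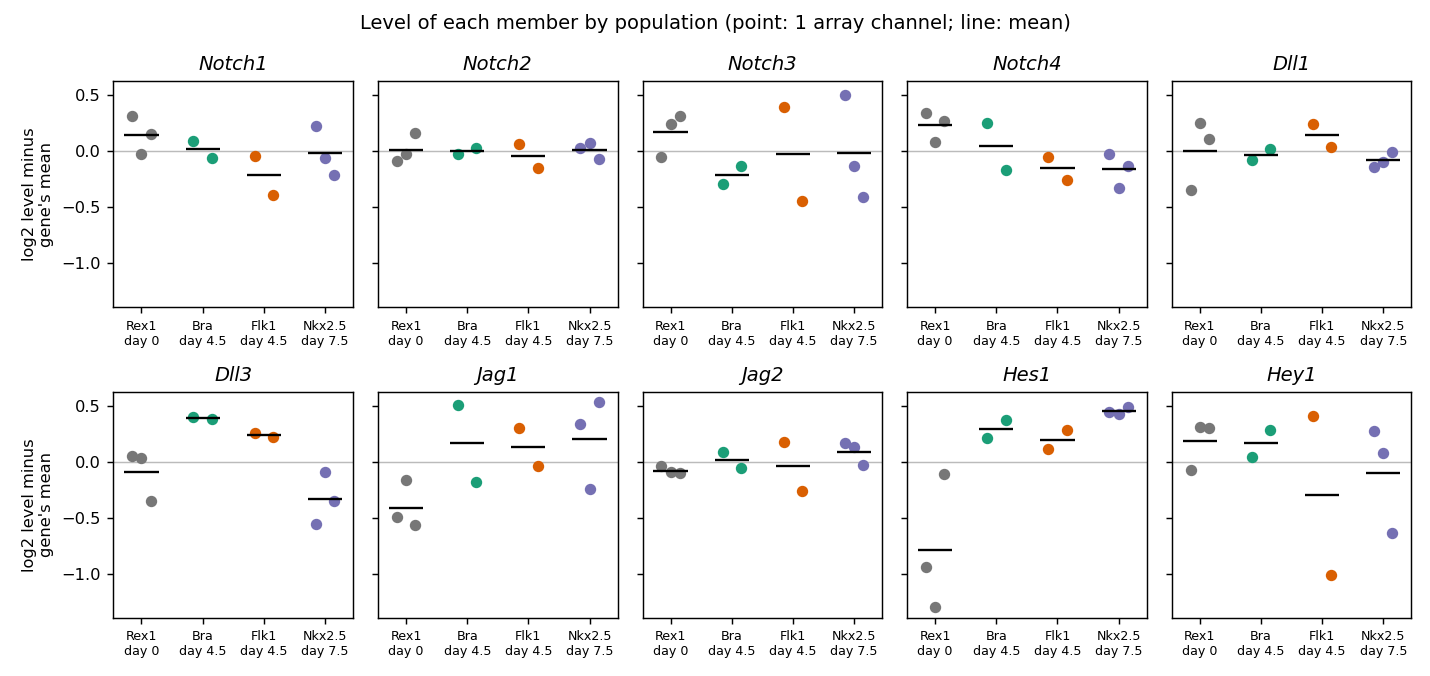
Normalised log2 level of the brightest probe of each of the 10 Notch genes, minus the gene's mean over all channels, in Rex1, Bra, Flk1 and Nkx2.5 cells, ordered by day. Each point is 1 array channel and each line the mean of a population; the Hes1 points of Rex1 cells lie below all others, and the Dll3 points of Bra and Flk1 cells lie above those of the other populations.

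**Figure D2:**
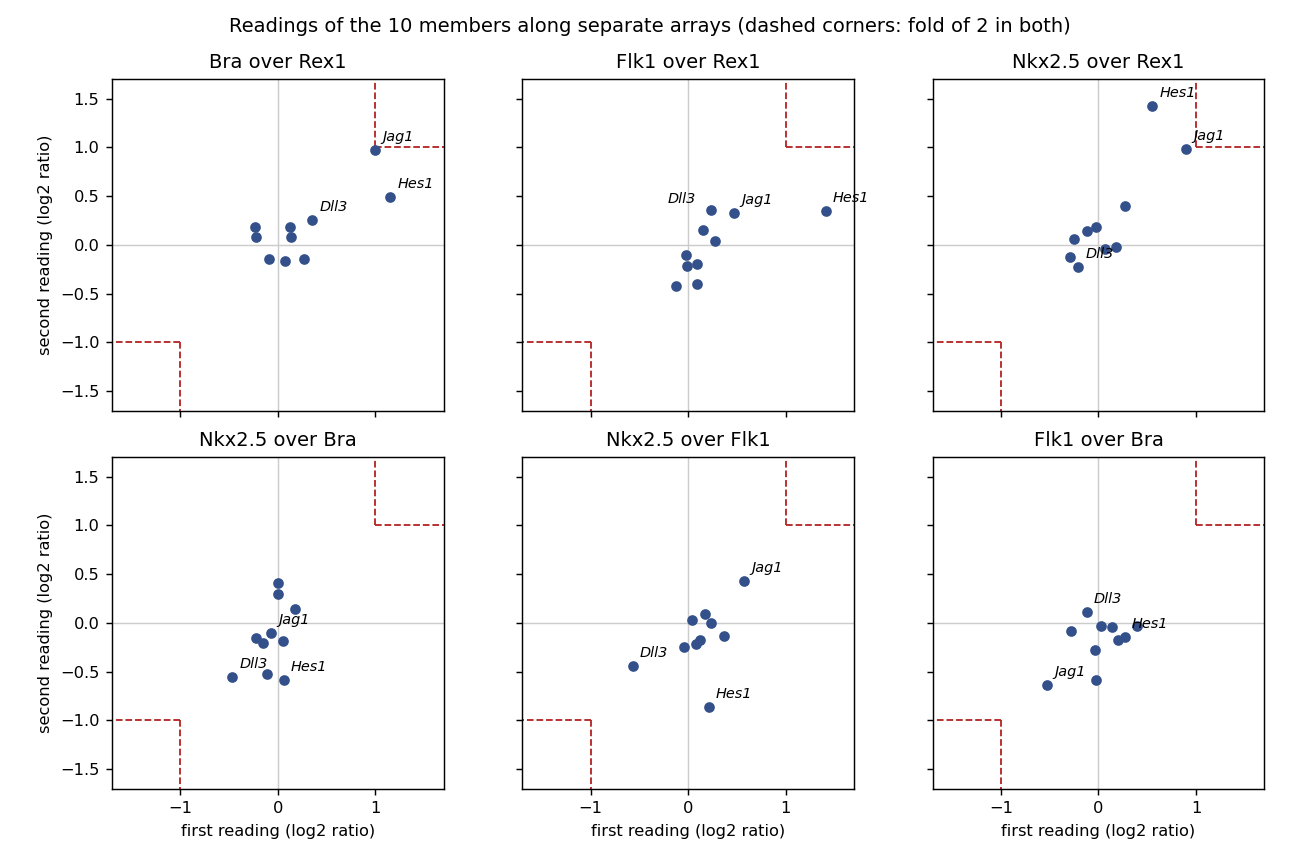
First reading (x axis) against second reading (y axis) of the log2 ratio for the 10 genes in each comparison, with dashed corners where both reach a fold of 2. No gene lies inside a corner; Jag1 lies at its edge in Bra over Rex1 and Nkx2.5 over Rex1, and Hes1 is past the fold of 2 in the first reading only in Bra and Flk1 over Rex1 and in the second reading only in Nkx2.5 over Rex1.

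Hes1, a repressor that is a direct Notch target in many tissues, had the largest ratios. Its log2 ratio was 1.15 in Bra over Rex1, 1.41 in Flk1 over Rex1 and 0.55 in Nkx2.5 over Rex1, which are folds of 2.21, 2.67 and 1.47. On the arrays without Rex1 it was 0.06 in Nkx2.5 over Bra and 0.21 in Nkx2.5 over Flk1. On the direct arrays, where Rex1 RNA carried Cy3, Hes1 thus read higher in all 3 differentiated populations than in Rex1 cells. Its ratios among those 3 populations were smaller.

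The size of the Hes1 difference depended on the arrays it was read from. Its triangle gaps were 0.66 through Bra and 1.07 through Flk1, and the larger of these exceeded the larger gap of 95.7% of genes and transcripts. The second readings were 0.49 in Bra over Rex1, 0.35 in Flk1 over Rex1 and 1.42 in Nkx2.5 over Rex1. A dye effect equal on all arrays would cancel in those of Bra and Flk1 and add up in that of Nkx2.5. The part of the dye in the Hes1 values was not tested. In log2 levels, normalised for each array channel, Rex1 cells had 11.49 on the array with Bra, 11.13 on the array with Flk1 and 12.32 on the array with Nkx2.5. Bra cells had 12.64 and 12.80, Flk1 cells 12.54 and 12.71, and Nkx2.5 cells 12.87, 12.86 and 12.92. The 7 channels of the differentiated populations therefore all lay above the 3 Rex1 channels, which also held for 6.06% of all genes and transcripts, and the highest Rex1 level was the one measured beside Nkx2.5. The reverse order, all 7 below, held for 5.56%. The 3 Nkx2.5 channels also lay above the 4 of Bra and Flk1, as they did for 3.82% of genes and transcripts, but by 0.06 at the nearest, and the second readings of Nkx2.5 over Bra (-0.59) and over Flk1 (-0.86) were below 0. The net Hes1 signal of Rex1 cells was 2668 beside Bra, 2364 beside Flk1 and 4317 beside Nkx2.5, or 0.275, 0.248 and 0.455 times the local background. Without the array of Nkx2.5 and Rex1, a choice made after seeing the data, Hes1 passed the fold of 2 in Bra over Rex1 (1.15 and 1.56), in Flk1 over Rex1 (1.414 and 1.001) and in Nkx2.5 over Rex1 (1.21 and 1.62). Without that array, each of these readings keeps any dye effect equal on all arrays, so their closeness does not speak to it. The shares of all genes and transcripts called higher were then 2.09%, 1.04% and 3.66%, and those called lower 0.29%, 0.274% and 0.77%. None of the 10 genes was called in the other comparisons, where the shares were 0.343% higher and 0.0968% lower in Nkx2.5 over Bra, 0.371% and 0.0766% in Nkx2.5 over Flk1, and 0.0202% and 0.00403% in Flk1 over Bra. By least squares over all 5 arrays Hes1 reached the fold of 2 in Bra over Rex1 (1.03) and Flk1 over Rex1 (1.10) and lay at 0.99 in Nkx2.5 over Rex1. Without background subtraction the Hes1 ratios over Rex1 were 0.20, 0.19 and 0.10.

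The 5 named genes whose ratios lay nearest to those of Hes1 over the 5 arrays, among 13090 above background on at least 1 array in each of the 4 populations, were Micu3 (Euclidean distance 0.20; above background on 1 of 3 Rex1 arrays), Gpc4 (0.24), Sec24d (0.27), Ubqln4 (0.27) and Pear1 (0.28). All 5 had the smallest of their ratios over Rex1 on the array with Nkx2.5, from 0.36 for Micu3 to 0.72 for Pear1. Their triangle gaps, sums of the same ratios by which the genes were chosen, were 0.42 to 0.85 through Bra and 0.68 to 1.31 through Flk1, so both follow from the choice. These likenesses are descriptions over 5 arrays that share populations.

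Hey1, another repressor of the family, showed no such difference. Its log2 ratios over Rex1 were 0.12 for Bra, 0.09 for Flk1 and -0.03 for Nkx2.5, and their second readings were 0.18, -0.40 and 0.18. Its ratio in Nkx2.5 over Flk1 was 0.37 on the direct array and -0.13 by the other route. Its levels were 11.90 to 12.29 in Rex1 cells, 12.02 and 12.26 in Bra cells, 12.38 and 10.97 in Flk1 cells, and 11.34 to 12.25 in Nkx2.5 cells. The lowest Flk1 and Nkx2.5 levels came from the array that carried both.

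Jag1, a transmembrane ligand needed for development of the heart and its vessels, lay just under the fold of 2 in both comparisons in which it was highest. In Bra over Rex1 its readings were 0.999 and 0.972, and in Nkx2.5 over Rex1 they were 0.898 and 0.982. In Flk1 over Rex1 they were 0.47 and 0.33. Jag1 was thus about as high in Nkx2.5 as in Bra cells (-0.07 and -0.10 in Nkx2.5 over Bra), while Flk1 cells lay between these and Rex1 cells. Nkx2.5 over Flk1 read 0.57 and 0.43, and Flk1 over Bra read -0.53 and -0.64.

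The routes came close to each other for Jag1, with triangle gaps of 0.03 and 0.14, and its larger gap was wider than that of only 17.2% of genes and transcripts. At a fold of 1.5 in both readings Jag1 was the only one of the 10 genes called, higher in Bra over Rex1 and in Nkx2.5 over Rex1, where 3.33% and 5.8% of all genes and transcripts were called higher and 1.34% and 2.96% lower. At that fold the shares were 2.6% higher and 1.37% lower in Flk1 over Rex1, 0.75% and 0.46% in Nkx2.5 over Bra, 1.08% and 0.613% in Nkx2.5 over Flk1, and 0.145% and 0.185% in Flk1 over Bra. By least squares Jag1 was at 1.01 in Bra over Rex1, past the fold of 2, and at 0.94 in Nkx2.5 over Rex1. Least squares put 2.44% of genes and transcripts past the fold of 2 as higher and 0.448% as lower in Bra over Rex1, 2.05% and 0.431% in Flk1 over Rex1, and 3.83% and 1.15% in Nkx2.5 over Rex1. It put 0.423% and 0.149% past it in Nkx2.5 over Bra, 0.593% and 0.149% in Nkx2.5 over Flk1, and 0.0524% and 0.0323% in Flk1 over Bra. The levels of Bra and Nkx2.5 cells overlapped those of Rex1 cells. Rex1 cells had 10.36, 10.69 and 10.29, Bra cells 11.36 and 10.68, Flk1 cells 11.16 and 10.82, and Nkx2.5 cells 11.19, 10.61 and 11.39. The lower Bra level and the lowest Nkx2.5 level came from the array that carried both, and lay under the highest Rex1 level. The net Jag1 signal in Rex1 cells was low, at 0.177 to 0.239 times the local background. In the authors' deposited table its ratios over Rex1 were 0.66 for Bra, 0.28 for Flk1 and 0.61 for Nkx2.5, and without background subtraction they were 0.13, 0.12 and 0.21.

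**Figure D3:**
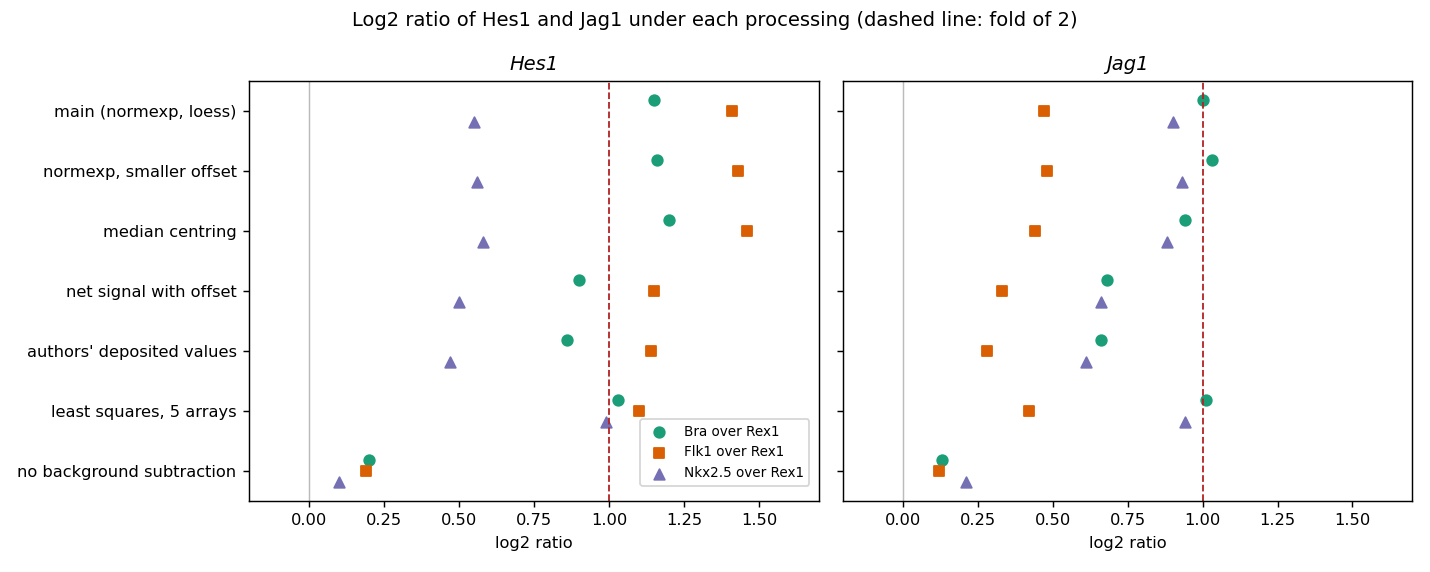
Log2 ratio of Hes1 and Jag1 in Bra, Flk1 and Nkx2.5 cells over Rex1 cells (x axis) under each processing (rows), with a dashed line at a fold of 2. All values are above 0; those without background subtraction lie between 0.10 and 0.21.

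Of the 10 genes, 8 have an entry in the RefSeq promoter table (build GRCm38.p6), which has none for Hes1 and Hey1. Their 250 bases before the start site were searched on both strands for TGGGAA, the core of RBPJ sites, and for CACGCG, a site bound by Hes and Hey factors. TGGGAA was found in 0 of the 8 genes and in 21.6% of 32851 promoters. CACGCG was found in Notch2, Dll1 and Jag1 and in 7.62% of all promoters. Dll1 has 2 promoters, of which 1 held the match, so genes are set beside promoters here. Jag1 had a pair of matches, as did 1.27% of promoters. The promoter of Jag1, the ligand nearest to the fold of 2, lies at chr2:137116521-137116770 on the minus strand, and capitals mark the CACGCG matches on either strand.
Jag1: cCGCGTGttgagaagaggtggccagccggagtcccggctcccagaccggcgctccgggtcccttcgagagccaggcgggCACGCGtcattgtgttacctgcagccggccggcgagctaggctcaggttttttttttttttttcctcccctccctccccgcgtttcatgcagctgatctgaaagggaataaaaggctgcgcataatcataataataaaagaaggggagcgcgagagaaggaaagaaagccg
A match describes these letters only, and no binding was measured.

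Dll3, a divergent ligand that acts in somite formation, had the lowest ratios of the ligands in Nkx2.5 cells against both mesodermal populations. Nkx2.5 over Bra read -0.47 and -0.55, and Nkx2.5 over Flk1 read -0.57 and -0.44, which is 0.724 and 0.673 times the Bra and Flk1 signal on the direct arrays. Only 1.85% and 2.2% of genes and transcripts had lower direct ratios there. Against Rex1, Bra read 0.35 and 0.26, Flk1 0.23 and 0.36, and Nkx2.5 -0.21 and -0.23. Both readings had 1 sign in each of these 5 comparisons, and the gaps were 0.09 and -0.13. Rex1 cells had levels of 12.72, 12.71 and 12.32, Bra cells 13.07 and 13.05, Flk1 cells 12.93 and 12.89, and Nkx2.5 cells 12.12, 12.58 and 12.32. The 3 Nkx2.5 channels all lay below the 4 channels of Bra and Flk1, as they did for 3.85% of all genes and transcripts. Over the settings tried, least squares included, the ratio lay from -0.52 to -0.21 in Nkx2.5 over Bra and from -0.59 to -0.28 in Nkx2.5 over Flk1.

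The other ligands stayed nearer to 0. Dll1, the main ligand of presomitic mesoderm, read 0.27 and -0.14 in Bra over Rex1 and -0.25 and 0.06 in Nkx2.5 over Rex1, so its sign depended on the route. It read below 0 by both routes in Nkx2.5 over Bra (-0.11 and -0.52) and in Nkx2.5 over Flk1 (-0.04 and -0.25). Jag2 read above 0 by both routes in Bra over Rex1 (0.13 and 0.08) and in Nkx2.5 over Rex1 (0.27 and 0.40). Its brightest probe had levels of 13.05 to 13.25 in Nkx2.5 cells and 12.98 to 13.04 in Rex1 cells, which differ by less than the error of 1 array at their nearest, and the levels of the probes AF038572 and Y14495 overlapped. All 4 Jag2 probes had positive ratios on the direct arrays of Nkx2.5 over Bra (0.07 to 0.18) and Nkx2.5 over Flk1 (0.14 to 0.49), but the second readings of the probe AF038572, which gave the 0.49, were -0.17 and -0.37. In Nkx2.5 over Rex1 they ranged from -0.26 to 0.39.

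The receptors differed little between populations. Notch1, the receptor most studied in the heart, had direct ratios by its brightest probe from -0.22 in Bra over Rex1 to 0.17 in Nkx2.5 over Flk1. Notch2 had ratios from -0.12 to 0.09 on the 5 arrays, and 0.0524% of genes and transcripts had a narrower range of levels. Notch3, a receptor of vascular smooth muscle, read -0.23 and 0.18 in Bra over Rex1. Notch4, a receptor of endothelium, had the lowest direct ratio of the receptors in Nkx2.5 over Rex1, at -0.29, with a second reading of -0.12. By the brightest probes, all Notch3 and Notch4 readings lay between -0.42 and 0.41. Over the 10 channels, levels spanned 11.56 to 12.26 for Notch1, 12.60 to 12.91 for Notch2, 11.47 to 12.41 for Notch3 and 11.99 to 12.66 for Notch4. In Flk1 cells all levels of Notch1 (11.56 to 11.90) and Notch4 (12.06 to 12.27) lay below the Rex1 levels (from 11.92 and from 12.40). The same held in Nkx2.5 cells for Notch4 (11.99 to 12.29) and in Bra cells for Notch3 (11.62 and 11.78, against 11.86 and above in Rex1 cells). A difference of under 0.24 is within the error of 1 array, and with 1 array per pair such changes cannot be told from that error. The 0.24 is an SD and no limit of detection, so larger differences can also come from array error.

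Probes of the same receptor did not always go together. A Notch1 probe (X82562) read -0.93 and -0.92 in Flk1 over Rex1 and -0.71 and -0.45 in Nkx2.5 over Rex1, although it was above background on all arrays. The other 3 Notch1 probes lay between -0.12 and -0.02 in Flk1 over Rex1 on the direct array. A Notch2 probe (X68279) that was not well above background in Rex1 cells on 3 of 3 arrays read 0.43 and 1.40 in Nkx2.5 over Rex1, and the other 2 Notch2 probes had -0.12 and 0.14 on that direct array. A pair of the 3 Notch4 probes was dim on some arrays, and in Flk1 over Rex1 the 3 ranged from -0.65 to -0.13. Which transcript each probe reports was not tested.

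Over all 10 genes, the levels of Dll3 and Hes1 in Bra cells, of Dll3, Jag1 and Hes1 in Flk1 cells and of Jag2 and Hes1 in Nkx2.5 cells lay wholly above those of Rex1 cells. This held for 15.2%, 13.9% and 15.9% of all genes and transcripts. The levels of Notch3 in Bra cells, of Notch1 and Notch4 in Flk1 cells and of Notch4 in Nkx2.5 cells lay wholly below, as did 14.3%, 14.9% and 15.0% of all. With 2 or 3 channels per population, 1 to 3 of 10 genes on each side is near these shares.

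**Figure D4:**
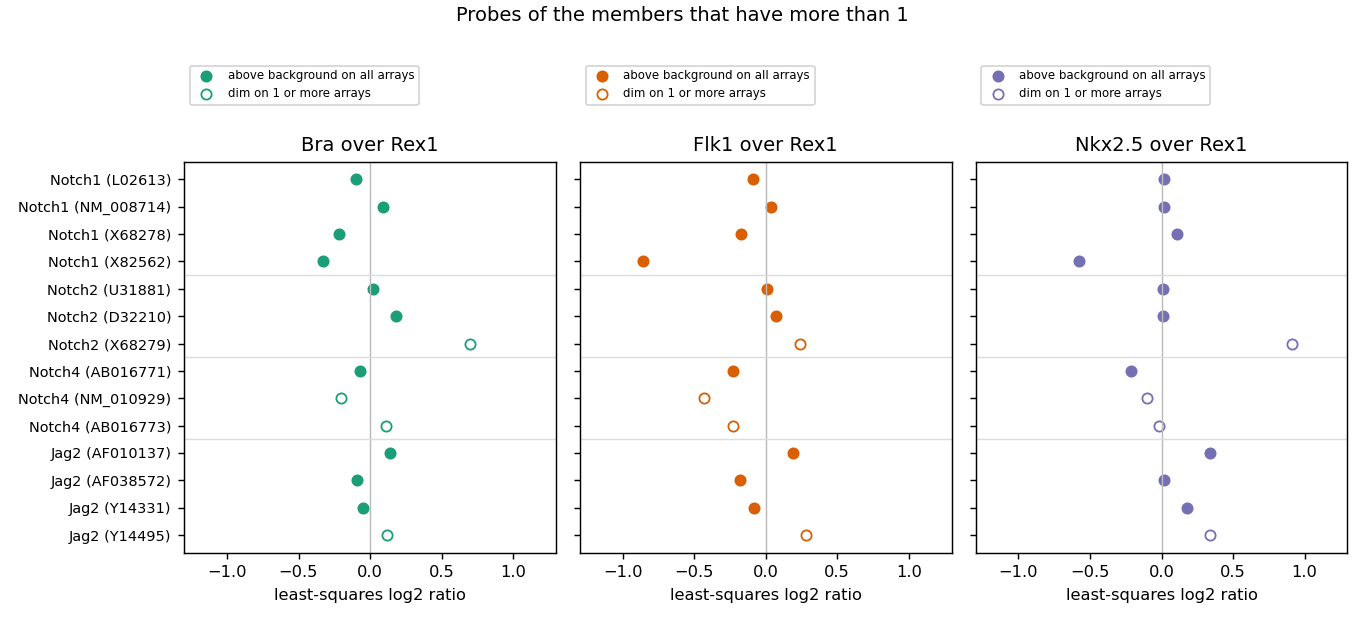
Least-squares log2 ratio over Rex1 of every probe of the 4 genes with more than 1 probe, for Bra, Flk1 and Nkx2.5 cells. Filled points are probes above background on all arrays and open points those dim on 1 or more; 1 Notch1 probe lies at -0.86 in Flk1 and -0.58 in Nkx2.5 cells, away from the other 3.

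Around the 10 genes, 44 of 49 further pathway genes were measured, among them ligands, glycosyltransferases, proteases, RBPJ cofactors and targets. Of these, 1 was higher in Bra over Rex1, 1 in Flk1 over Rex1 and 1 in Nkx2.5 over Rex1, and none was lower; the other 3 comparisons had none in either direction. The shares of all genes and transcripts called higher were 1.16%, 0.689% and 2.43%, so 1 of 44 is near the background in each. Hey2, a Hey family repressor of the ventricular heart, was called higher in Bra over Rex1 (1.20 and 1.22) and in Nkx2.5 over Rex1 (1.56 and 1.44), although it was not well above background in Rex1 cells on 3 of 3 arrays. In Flk1 over Rex1 it read 0.63 and 0.84, and in Nkx2.5 over Flk1 0.72 and 0.94. Hey2 had levels of 9.51, 9.06 and 8.84 in Rex1 cells, 10.71 and 11.06 in Bra cells, 9.68 and 10.62 in Flk1 cells, and 10.40, 11.40 and 11.34 in Nkx2.5 cells. Its differences from Rex1 cells are therefore bounds, given for the processing used here. Hey2 was at least 1.84-fold higher in Bra cells, at least 1.11-fold higher in Flk1 cells and at least 2.06-fold higher in Nkx2.5 cells. The bound for Bra cells does not reach the fold of 2. Like Jag1, Hey2 read lower in Flk1 cells than in Bra and Nkx2.5 cells by both routes. Nkx2.5 over Bra read 0.34 and 0.36 for Hey2, against -0.07 and -0.10 for Jag1. The Hey2 calls held under 3 of 6 other ways of processing. Without background subtraction Hey2 read -0.19 and -0.07 in Bra over Rex1 and -0.11 and -0.27 in Nkx2.5 over Rex1. In the authors' deposited values Hey2 read 1.05 and 0.52 in Bra over Rex1 and 0.73 and 1.39 in Nkx2.5 over Rex1. Its lower readings there lie under the bounds. Its spot on the array of Nkx2.5 and Rex1 was marked Bad in the file, and that spot gives the first reading of Nkx2.5 over Rex1 (1.56) and enters the second reading of Bra over Rex1 (1.22). With Bad spots left out, 1 reading remained in each comparison (1.44 for Nkx2.5 and 1.20 for Bra over Rex1), and neither call could be made.

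Of 5 further pathway genes whose promoters were read, Hey2, Hes5 and Rbpj held TGGGAA and Dll4 and Nrarp did not, beside 21.6% of all promoters. The Hey2 promoter, shown because Hey2 was called, held 1 match, on the other strand and at -207 to -202 from the start site, marked in capitals. It lies at chr10:30842784-30843033 on the minus strand.
Hey2: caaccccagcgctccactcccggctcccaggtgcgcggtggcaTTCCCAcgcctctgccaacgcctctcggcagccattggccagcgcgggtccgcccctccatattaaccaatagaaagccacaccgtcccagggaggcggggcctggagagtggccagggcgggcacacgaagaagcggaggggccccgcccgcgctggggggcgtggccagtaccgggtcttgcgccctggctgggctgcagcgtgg

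Ctbp1, a co-repressor, was higher in Flk1 over Rex1 (1.54 and 1.0) and read 0.67 and 0.88 in Bra over Rex1 and 0.97 and 1.14 in Nkx2.5 over Rex1. Its call in Flk1 over Rex1 held under 3 of 6 other ways of processing. Among these is leaving out spots marked Bad, which kept its readings at 1.54 and 1.0 and so could not alter the call. The authors' deposited values gave it 1.11 and 0.81, without a call. Dll4, a ligand of arterial endothelium, read -0.24 and -0.22 in Flk1 over Rex1. Rbpj, the DNA-binding partner of the receptors, read 0.38 and -0.08 in Bra over Rex1. Hes5, a Notch target of neural progenitors, read -0.57 and -0.05 in Nkx2.5 over Flk1, and Heyl read 0.32 and 0.18 in Bra over Rex1. Lfng, a glycosyltransferase that modifies the receptors, was well above background on no array.

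Some cell type markers differed between the populations as well. Called higher in Bra, Flk1 and Nkx2.5 over Rex1 were 1.16%, 0.689% and 2.43% of all genes and transcripts. Of 8 cardiomyocyte markers, 5 were higher in Nkx2.5 over Rex1, with a summed level of 74034 to 84143 in Nkx2.5 cells and 21442 to 28829 in Rex1 cells. Of 10 endothelial markers, 2 were higher in Flk1 over Rex1, 1 in Bra over Rex1 and 1 in Nkx2.5 over Rex1. Their summed levels in Flk1 cells (33177 to 36971) and Nkx2.5 cells (29352 to 36834) overlapped. They were 22113 to 24104 in Bra cells and 19351 to 21698 in Rex1 cells. Of 6 endoderm markers, 3 were higher in Nkx2.5 over Rex1 and 2 in Bra over Rex1; their summed level was 10073 to 13524 in Rex1 cells, 19414 to 20786 in Bra cells, 16878 to 19610 in Flk1 cells and 34220 to 36220 in Nkx2.5 cells. Of 7 measured paraxial mesoderm markers, 1 was higher in Bra over Rex1, and their summed level was 35176 to 40911 in Bra cells and 37987 to 40746 in Rex1 cells. Of 10 neural markers, 1 was higher in Bra over Rex1, with summed levels of 51546 to 54293 in Bra cells and 45438 to 49940 in Rex1 cells. The neural sums of Flk1 cells (49011 to 50940) and Nkx2.5 cells (46631 to 49578) overlapped those of Rex1 cells. Of 6 blood markers, 1 was higher in Nkx2.5 over Rex1, with summed levels of 57314 to 62288 in Nkx2.5 cells and 26581 to 39170 in Rex1 cells. The part of these other cells in the values of Hes1, Jag1, Dll3 and Hey2 was not tested. In such pooled RNA, fewer cells of a type and less RNA per cell cannot be told apart.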

How the data were processed

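Each of the 5 arrays was a 2-colour AceGene mouse array with 1 population in Cy5 (named first in every ratio) and another in Cy3, per the labels. The deposited scanner files give, per spot, a net intensity, a local background intensity and a ratio of the channels, per the file headers; the authors' deposited table holds log2 values that equal the log2 of that ratio minus 1 constant per array, with a maximal deviation of 1e-06 and medians from -0.0846 to -0.00732. Not given in the sources used here are the scanner and its settings. Signal plus background was rebuilt, corrected by normexp with an offset of 50 and normalised by loess within each array (limma 3.58.1, R 4.3.3), giving no weight to control spots; levels per channel used Aquantile scaling as well. A spot was well above background where its net intensity exceeded the 95th percentile of 96 negative spots of its array and channel. Of 28845 probes, 8056 were named by accession, 5226 by symbol and 5063 by synonym through a RefSeq gene table, 576 kept the file's name and 9924 had none; the brightest probe stood for a gene. No column of another sample was used.

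With 1 array per pair there is no replicate, so no test was made, and the number of arrays limits the precision; triangle gaps gave the error. Named genes were the 10 genes, the 4 sort markers, every pathway gene that passed the fold of 2, 6 further pathway genes fixed by name, and the 5 genes nearest to the widest-ranging gene. The genes and lists were chosen with earlier results of these data known. Other background corrections, centring, offsets, probe rules, fold limits and the deposited table were tried as alternatives.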

Additional observations from a re-analysis of the deposited data

How the results depend on the processing

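The count of Notch genes past the fold of 2 stayed at 0 in Nkx2.5 over Bra, Nkx2.5 over Flk1 and Flk1 over Bra under every alternative run. In Bra over Rex1 it was 1 (Jag1) at a fold of 1.5, 2 (Jag1 and Hes1) by least squares and 1 (Hes1) without the array of Nkx2.5 and Rex1. In Flk1 over Rex1 it was 1 (Hes1) by least squares and 1 (Hes1) without that array. In Nkx2.5 over Rex1 it was 1 (Jag1) at a fold of 1.5 and 1 (Hes1) without that array, which was left out after seeing the data. Least squares and the missing array can change these counts, since they weigh the readings differently. Without that array, no reading over Rex1 is left in which a dye effect equal on all arrays would cancel. Of 320 recomputed ratios of the 10 genes that the setting could alter, 295 lay within 0.24 of the value reported and 25 beyond it, 13 of them without background subtraction; the cause was not tested. The dim Rex1 signal leaves only bounds for Hey2, and these are given for the processing used here. The Hey2 calls are lost when spots marked Bad are left out. No paired analysis was possible because each pair of populations was hybridised once. For the same reason no replicate could be left out.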
